A study of Mus musculus with 162 samples.

Results

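The cerebellum (CBL) was compared with the olfactory bulb (OB), the sample labelled brain (BRN) and the brainstem (BST) of the same mice, gene by gene and within each fasting time. The libraries were chosen by the organ in their titles: 18 CBL libraries of the 162 in the series were set against 18 OB, 16 BRN and 18 BST libraries. These 52 other libraries left out BRN 8 h replicate 3 and BRN 18 h replicate 1, so 70 libraries entered the fit. The regions compared were chosen with earlier results of these data known.

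The study sequenced mRNA from 9 organs of male C57BL/6J mice aged 8 to 9 weeks that had been fasted for 0, 2, 8, 12, 18 or 22 h. There were 3 mice per fasting time and 18 in all, and each mouse gave every organ. Each region therefore had 3 libraries at each time, except BRN with 2 at 8 h and 2 at 18 h. The samples were pieces of whole tissue, with no transgene, sorting or drug. Total counts ran from 6487419 to 22071004 in CBL, from 8224940 to 17704828 in OB, from 3045845 to 12108290 in BRN and from 6998492 to 11776354 in BST. The CBL libraries at 0 h were the deepest, at 20396385 to 22071004, and those at the other times held 6487419 to 9487976. The library names give lane 3 for all 18 CBL libraries and lane 4 for all 18 BST libraries. OB has 8 libraries with lane 3 and 10 with lane 4, and BRN has 5 lanes. The names do not give the run, and some BRN and liver libraries carry the same sample and lane number, so that libraries with equal lane numbers need not share a run. Run and region therefore cannot be told apart in any of these comparisons.

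The cerebellar cortex holds a dense layer of small excitatory granule cells, whose parallel fibres contact the large inhibitory Purkinje cells, its output neurons. Inhibitory interneurons of the molecular layer and Golgi cells act on these neurons, and Bergmann glia wrap the Purkinje cell synapses. The cerebellum forms in the embryo next to the isthmus, from the rhombic lip and the ventricular zone of the anterior hindbrain, and it carries regulators of that origin into adult life.

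The labels were first checked with Pcp2, a Purkinje cell protein that acts on G protein signalling, and Cbln3, a granule cell protein of the cerebellin family. Values are CPM after TMM scaling, called normalized CPM here. Pcp2 lay at 274 to 388 (median 334) in CBL, 0.0885 to 1.16 (median 0.586) in OB, 0 to 3.03 (median 0.446) in BRN and 0.981 to 23.5 (median 2.3) in BST. Cbln3 lay at 1397 to 2019.8 (median 1748) in CBL, 0.112 to 1.26 (median 0.613) in OB, 0 to 8.22 (median 0.384) in BRN and 4.78 to 132.8 (median 17.8) in BST. For both markers all 18 CBL libraries stood far above all 52 others and no values overlapped, so the CBL label matched its markers in every library. Against the mean of the other regions the log2 fold change (log2FC) of Pcp2 was 8.22 ± 0.15 (SE), with a Benjamini-Hochberg adjusted p of 1.84e-41 in the edgeR quasi-likelihood test. That of Cbln3 was 9.47 ± 0.19 (SE), with an adjusted p of 1.16e-39 in the same edgeR test. Pcp2 is encoded on the minus strand of chromosome 8 from 3623371 to 3625545, and Cbln3 on the minus strand of chromosome 14 from 55878913 to 55884392 (GRCm38). Pcp2 shares 51.5% of its exon bases with Pet100 on the opposite strand, and the sources used give no strand setting for the counting, so reads of that stretch cannot be assigned with certainty. The same holds in part for other genes, as 44 of the named genes share exon bases with another gene, among them Homer3 (25.4% with Ddx49) and Hopx (27.2% with Hopxos).

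**Figure D1:**
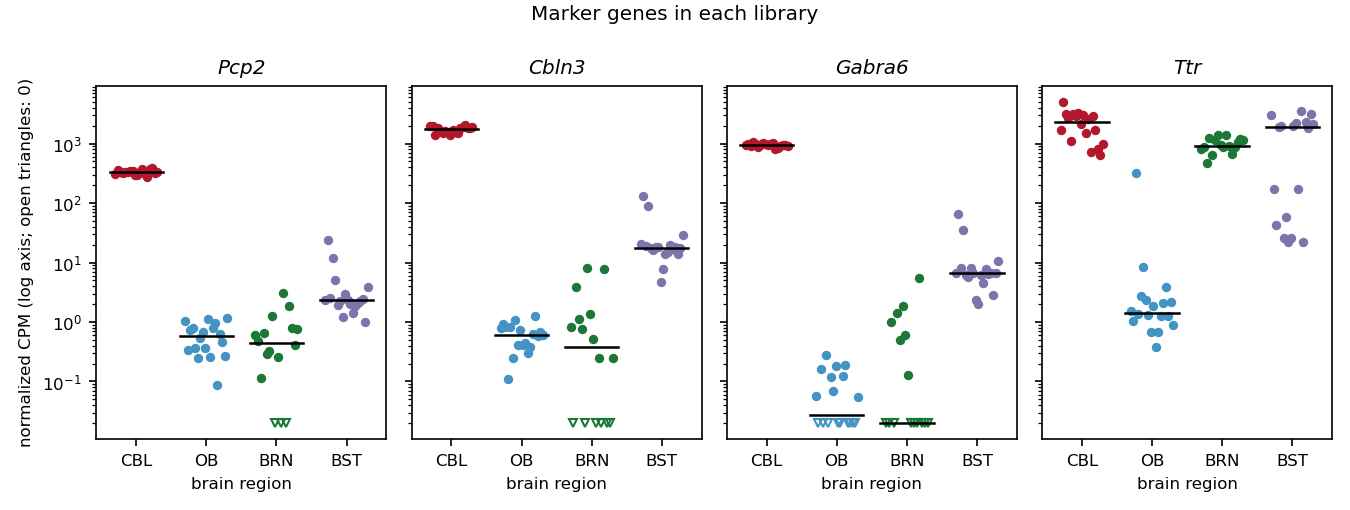
Normalized CPM (log axis) of Pcp2, Cbln3, Gabra6 and Ttr in each of the 70 libraries, 1 point per library, ordered by fasting time within a region; black lines are medians and open triangles are libraries with 0 counts. Pcp2, Cbln3 and Gabra6 were higher in all 18 CBL libraries than in the 52 others, while Ttr, a gene of the choroid plexus, overlapped between CBL, BRN and BST.

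The BST libraries held low levels of the same transcripts. Relative to the mean CBL level, Pcp2 in BST reached 0.281% to 6.94% (median 0.691%), Cbln3 0.311% to 7.50% (median 0.995%) and Gabra6 0.201% to 6.77% (median 0.702%). BST 0 h replicate 2 and BST 2 h replicate 1 had the highest levels of these genes, and in the 16 remaining BST libraries Cbln3 stayed at or under 1.57%. In OB, Cbln3 was at most 0.0705% of the CBL level. In BRN it was at most 0.535%. Pcp2 marks Purkinje cells and the other two granule cells, and each of the 3 stood highest in BST 0 h replicate 2. Without those 2 BST libraries 683 genes were higher and 709 lower in CBL than in every other region, against 685 and 710 with them. The part of traces of cerebellar tissue in the other BST differences was not tested.

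The promoters of both marker genes are shown because the labels were checked with these genes. The sequences are the 250 bases before a start of each gene in RefSeq (GRCm38.p6, minus strand, 5′ to 3′): chr8:3625548-3625797 for Pcp2, and chr14:55884257-55884506 for Cbln3. They were searched on both strands for AGGTCA, for CAGATG, for CAGCTG and for TAATTA, and matches are in capitals. Both genes were found by symbol. RefSeq lists 4 starts for Pcp2, of which the outermost was used, and 1 for Cbln3. The Gencode start of Cbln3 lies further out, so that 54.4% of its window is inside the gene as placed above. The capitals in Pcp2 mark 1 AGGTCA and 1 CAGATG, which do not overlap, and Cbln3 held no match. Of all 32851 promoters in the table, 14.0% held AGGTCA, 14.4% CAGATG, 13.0% CAGCTG and 4.84% TAATTA. A match describes the letters of the window and nothing more.
Pcp2: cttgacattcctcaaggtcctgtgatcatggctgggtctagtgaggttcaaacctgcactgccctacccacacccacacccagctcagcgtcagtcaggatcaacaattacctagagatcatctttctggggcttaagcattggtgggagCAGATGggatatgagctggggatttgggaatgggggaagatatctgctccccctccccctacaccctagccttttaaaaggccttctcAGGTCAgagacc
Cbln3: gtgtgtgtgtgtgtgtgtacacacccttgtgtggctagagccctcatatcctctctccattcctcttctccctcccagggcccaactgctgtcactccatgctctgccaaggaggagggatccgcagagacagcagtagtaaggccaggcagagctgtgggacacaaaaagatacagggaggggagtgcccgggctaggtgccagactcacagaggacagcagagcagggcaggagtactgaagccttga

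Across the genome, CBL differed from the other regions in many genes and in both directions. A gene was called at a Benjamini-Hochberg adjusted p under 0.05 in the edgeR quasi-likelihood test with an absolute log2FC over 1. Of 18496 genes tested, 1590 (8.6%) were higher and 1916 (10.4%) lower in CBL than in the mean of OB, BRN and BST. With total counts in place of TMM factors that split was 1765 and 1762, without replicate 1 of every group 1714 and 1706, without replicate 3 of every group 2014 and 1377, and with no filter 2581 and 1995. With DESeq2 it was 1588 and 2332, and with upper quartile factors 1488 and 2032. Against OB alone 2037 (11%) were higher and 2465 (13.3%) lower. Against BRN alone 2703 (14.6%) were higher and 3113 (16.8%) lower. Against BST alone 1703 (9.21%) were higher and 2411 (13%) lower. These comparisons share the CBL libraries and are not independent of each other. The median log2FC over all genes was -0.01 against the mean, 0.01 against OB, 0.00 against BRN and -0.02 against BST. In the comparison with BRN the split of called genes turned under several alternatives. With total counts in place of TMM factors it was 3414 higher and 2613 lower, with the median of all genes at 0.17. It was 3845 and 3297 with no filter, and 3367 and 3251 at 18 h alone. Leaving out replicate 1, 2 or 3 of every group left BRN with 1 library at 8 h, 18 h or both. The spread there came from other groups. Splits from such runs, here and elsewhere in the text, therefore rest partly on single BRN libraries. BRN libraries held more ribosomal RNA sequence, with a median of 1.08% of counts on Gm42418 against 0.283% in CBL.

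A stricter test asked whether CBL differed from each of the other regions in the same direction, with both thresholds met in all 3 comparisons. In it 685 genes (3.7%) were higher and 710 (3.84%) lower in CBL. The order of these counts depended on the alternative. They were 729 and 647 with total counts, 685 and 509 without replicate 3 of every group, 635 and 788 with upper quartile factors, and 685 and 776 with DESeq2. The smallest of the 3 log2FC values had a median of 1.62 among the former and -1.57 among the latter. Independently of any test, 728 genes (3.94%) had every CBL library above all 52 others, and 445 (2.41%) had every CBL library below them. Of the genes tested 80.5% were protein coding, against 73.3% of those higher and 85.2% of those lower than in every other region. Gene groups and cell types are described by how many of their tested members were called against the mean of the other regions, to be read against the shares of 8.6% and 10.4% over all genes. In tissue pieces, more cells of a type and more RNA per cell cannot be told apart.

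Granule cell genes were among the transcripts that most separated CBL from the rest of the brain. Of 15 genes of this cell type, 13 were higher in CBL and 0 lower, and 14 had every CBL library above all others. Their median log2FC was 3.74, or 3.44 with genes at the detection floor set to their bound, beside -0.01 over all genes. Gabra6, the GABA-A receptor subunit of granule cells, lay at 825 to 1069.6 (median 962) in CBL, at no more than 0.274 in OB, at no more than 5.59 in BRN and at 1.98 to 64.6 (median 6.6) in BST. All 18 CBL libraries exceeded all others without overlap, and OB was at the floor of 3 counts, so that CBL stood at least 2744-fold higher than OB. It was called against the mean (edgeR adjusted p 1.64e-38), where its log2 difference was 9.43 with levels under the floor set to the floor. Fat2, an atypical cadherin of parallel fibres, lay at 286 to 513 (median 392) in CBL and at no more than 36.4 in any other library, with a log2FC of 7.59 ± 0.13 (SE; edgeR adjusted p 1.34e-42, 18 of 18 CBL libraries higher). En2, an engrailed homeobox factor, lay at 99.6 to 141.3 in CBL and at most at 16.4 elsewhere, with a log2FC of 6.80 ± 0.12 (SE; edgeR adjusted p 4.08e-45, 18 of 18 higher). The members not called, Slc17a7 and Rbfox3, are also found in other neurons. Gabrd, which was called, was also detected in the other regions, and whether this bears on the calls was not tested. Slc17a7, the vesicular glutamate transporter VGLUT1, was at 519 in CBL (median), 758 in OB, 1039 in BRN and 108 in BST. Its differences were -0.55 from OB, -0.99 from BRN and 2.28 from BST, so its order depended on the region it was compared with.

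Purkinje cell genes were likewise high. Of 22 such genes, 19 were higher in CBL and 0 lower, with a median log2FC of 3.70 (3.60 with floor genes at their bound). Besides Pcp2, Car8, a carbonic anhydrase-like protein that binds the IP3 receptor, lay at 1737 to 2318 (median 1988) in CBL and had medians of 8.51 in OB, 11.6 in BRN and 26.9 in BST. Every CBL library exceeded all others, and the log2FC was 7.03 ± 0.12 (SE; edgeR adjusted p 1.48e-42). Ppp1r17, an inhibitor of protein phosphatases, lay at 326 to 442 (median 390.3) in CBL and at no more than 31.4 elsewhere, again without overlap, with a log2FC of 6.66 ± 0.14 (SE; edgeR adjusted p 8.61e-40). Skor2, a transcriptional co-repressor needed for Purkinje cell differentiation, lay at 5.06 to 12.6 (median 8.49) in CBL and at 0.609 to 1.8 (median 1.01) in BST, and was at the floor in OB and BRN. CBL was thus at least 25.8-fold higher than OB and at least 7.64-fold higher than BRN. The genes of this group that were not called are also expressed outside Purkinje cells. Some that were called, such as Itpr1, were also detected in the other regions. Whether this bears on the calls was not tested. Aldoc, the glycolytic enzyme that marks zebrin stripes and also astrocytes, was at 1737 in CBL and 1716 in BST (medians), a log2FC of 0.06 against BST. Pcp4, a calmodulin regulator, had overlapping ranges of 24.8 to 38.5 in CBL and 19.8 to 127 in BRN. Foxp2 (log2FC -0.24) was also not called, and is named here after its value was seen.

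Purkinje cells answer parallel fibre input in part by releasing calcium from stores by way of phospholipase C and the IP3 receptor. Of 16 genes of this pathway 15 were tested, and 12 were higher in CBL and 0 lower, with a median log2FC of 2.65. Itpr1, the IP3 receptor through which calcium leaves the store, lay at 1692 to 2453 (median 1972) in CBL and at no more than 429 elsewhere, with a log2FC of 3.67 ± 0.06 (SE; edgeR adjusted p 1.04e-45). Homer3, a postsynaptic scaffold that binds that receptor, had a log2FC of 4.23 ± 0.05 (SE; edgeR adjusted p 5.57e-58, 18 of 18 higher). Calb1, the calcium buffer calbindin, lay at 1037 to 1403 (median 1199) in CBL, with a log2FC of 4.43 ± 0.06 (SE; edgeR adjusted p 7.23e-54). Of the G protein subunits that act on phospholipase C, Gnaq at 0.34 and Gna11 at -0.19 (log2FC) were not called. Within CBL, and per kilobase of exon, Car8 (519 CPM per kilobase) and Calb1 (249) stood above Itpr1 (110.1) and Homer3 (108).

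The other neurons of the cerebellar cortex gave mixed results. Of 9 genes of molecular layer interneurons, 5 were higher in CBL and 1 lower, with a median log2FC of 1.32. Pvalb, the calcium buffer parvalbumin, which Purkinje cells also hold, lay at 726 to 1032 (median 901) in CBL, 67.8 to 279 (median 153.6) in BRN and 246 to 311 (median 276) in BST, so that CBL did not overlap with them, and its log2FC was 3.79 ± 0.06 (SE; edgeR adjusted p 5.49e-46). Kit, a receptor tyrosine kinase of basket and stellate cells, had a log2FC of 2.15 ± 0.05 (SE; edgeR adjusted p 2.87e-42, 18 of 18 higher). The transcription factors Tfap2a and Tfap2b had log2FCs of 4.17 and 3.43, with every CBL library above all others. Cdh22, an adhesion protein, was not called (log2FC 0.13 ± 0.07, SE). Of 5 genes of unipolar brush cells, the excitatory interneurons of the granular layer, 5 were higher and 0 lower, with a median of 2.62. Eomes, a T-box factor of these cells and of olfactory bulb neurons, showed how the region compared with matters: its log2FC was 5.00 against BRN, 4.46 against BST and -2.26 against OB. Of 6 genes of Golgi cells, 1 was higher and 3 were lower, with a median of -0.56. Slc6a5, the glycine transporter GlyT2, lay at 24.3 to 44.5 (median 35.2) in CBL, 0 to 0.401 (median 0.0596) in OB, 0 to 18.4 (median 4.07) in BRN and 267 to 565 (median 504) in BST. CBL stood above OB and BRN and far below BST, whose libraries did not overlap with those of CBL.

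Among glia, genes of Bergmann glia, the astrocytes of the Purkinje cell layer, and of astrocytes in general were compared. Of 10 Bergmann glia genes 9 were tested, as Sept4 cannot be told from a date in the deposited symbols, and 6 were higher in CBL and 0 lower, with a median log2FC of 1.47. Against OB 4 were higher and 2 lower (median 0.81). Gdf10, a growth factor of the BMP family made by Bergmann glia, lay at 145.1 to 241 (median 173) in CBL and at no more than 18.8 elsewhere, with a log2FC of 4.46 ± 0.09 (SE; edgeR adjusted p 7.67e-43, 18 of 18 higher). Hopx and A2m, also without overlap, had log2FCs of 1.99 and 2.98. Of 12 astrocyte genes 2 were higher and 2 lower, with a median of -0.06. S100b and the water channel Aqp4 were higher against the mean yet level with BST (log2FC 0.13 and 0.04 against BST). Slc1a2, the glutamate transporter GLT-1, lay at 440.0 to 659 (median 556) in CBL against medians of 811 in OB, 1602 in BRN and 1360.0 in BST, and the log2FC was -1.12 ± 0.04 (SE; edgeR adjusted p 5.78e-35). Gfap, the intermediate filament of astrocytes, had a log2FC of -1.08 ± 0.05 (SE; edgeR adjusted p 1.94e-28), and its CBL range reached 249 while the lowest other library was at 186.

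Myelin, precursor and immune cells of the glia were described by the same kind of lists. In edgeR and in DESeq2 0 of 12 oligodendrocyte genes were called against the mean (median log2FC -0.41, 11 at an unadjusted p under 0.05 in edgeR). Against OB 6 were higher and 0 lower, against BRN 0 were higher and 3 lower, and against BST 0 were higher and 12 lower. Over all genes 13735 of 18496 had an edgeR adjusted p under 0.05 against the mean without the fold threshold. Counts of list members at an unadjusted p, here and below, are to be read against that number. Mbp, myelin basic protein, was at 2511 to 5019 (median 3486) in CBL, 1271 to 2126 (median 1666) in OB, 2702 to 16714 (median 5718) in BRN and 9737 to 11045 (median 10266) in BST. The CBL libraries thus stood above all OB and below all BST libraries. Of 7 genes of oligodendrocyte precursors 0 were higher and 5 lower, with a median of -1.09. Cspg4, the NG2 proteoglycan, had a log2FC of -1.43 ± 0.08 (SE; edgeR adjusted p 1.06e-25). Of 12 microglia genes 0 were higher and 10 lower, with a median of -1.41. Against OB 11 and against BRN 10 were lower, but against BST 2 (median -0.82), and 2 were lower than in every other region. Cx3cr1, the fractalkine receptor, lay at 9.49 to 16 (median 12.6) in CBL and at no less than 21.2 in any other library, with a log2FC of -1.43 ± 0.06 (SE; edgeR adjusted p 1.18e-30, 18 of 18 lower). The summed level of the 12 genes was 166.1 to 228 (median 199.7) in CBL, 531 to 716 (median 661) in OB, 439 to 835 (median 555) in BRN and 295 to 411 (median 367) in BST. No CBL library reached the lowest library of another region. Sall1, a zinc finger factor of microglia, had a far higher level in OB than in the other regions (median 178, against 19.8 in BRN and 25.9 in BST). Its log2FC was -4.67 against OB, -1.39 against BRN and -1.85 against BST.

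**Figure D2:**
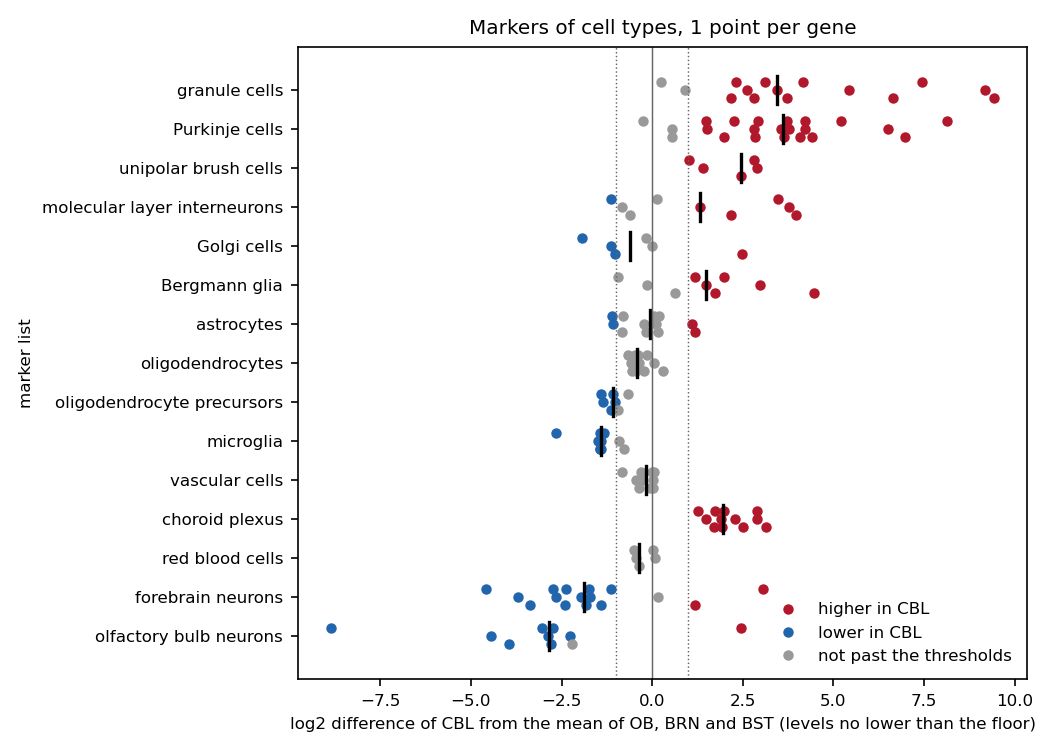
Log2 difference of the CBL mean from the mean of OB, BRN and BST for each tested gene of 15 cell type lists, with levels under the floor of 3 counts set to the floor; red and blue points were called higher and lower in CBL, grey points were not, and black bars are medians. Granule and Purkinje cell genes had medians of 3.44 and 3.60, and microglia and olfactory bulb neuron genes of -1.42 and -2.84.

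Genes of vessels, blood and choroid plexus were compared because pieces of tissue may hold different amounts of these. In edgeR and in DESeq2 0 of 10 vascular genes were called against the mean (median -0.16, 4 at an unadjusted p under 0.05 in edgeR), and 0 of 5 red blood cell genes (median -0.32, 2 at an unadjusted p under 0.05 in edgeR). Against BRN 3 red blood cell genes were lower (median -1.085), and against BST 2 vascular genes were lower (median -0.78). All 12 choroid plexus genes were higher than the mean of the other regions (12 higher, 0 lower, median 2.01), and 3 of them were higher than in every other region. At 22 h alone 3 of the 12 were higher than that mean (median 0.53). Over all times 12 were higher against OB (median 4.44) and 10 against BRN (median 1.36). Against BST 4 were higher and 1 lower (median 0.67). Ttr, the thyroxine carrier of the choroid plexus, lay at 635 to 4996 (median 2333) in CBL, 0.385 to 326 (median 1.44) in OB, 478 to 1414 (median 921) in BRN and 21.8 to 3524 (median 1872) in BST. The CBL values overlapped widely with those of BRN and BST, and its log2FC of 3.84 ± 0.37 (SE; edgeR adjusted p 4.86e-13) combined 9.14 against OB with 1.09 against BRN and 1.29 against BST. Otx2, a homeobox factor of the choroid plexus and of unipolar brush cells, was the member with every CBL library above all others, at 14.2 to 30.1 (median 20.02) in CBL and at most 13.2 elsewhere. The summed level of the 12 genes varied among the CBL libraries themselves, from 2627 to 7211 (median 4635) at 0 h to 1109 to 1557 (median 1285) at 22 h. At 22 h it was 3270.0 to 5430.0 (median 3779) in BST and 1576 to 1716 (median 1611) in BRN, both above all CBL libraries of that time, while at 0 h it was 617 to 5044 (median 772) in BST and the ranges overlapped. For the change of the CBL difference over fasting time 0 of these 12 genes were called in edgeR, 3 had an unadjusted p under 0.05, and DESeq2 called 1. The adjusted p in edgeR was 0.63 for Ttr and 0.245 for Enpp2, named as the smallest of the list after its value was seen. How much choroid plexus each piece held was not tested.

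The genes that most exceeded every other region were ranked by the smallest of the 3 log2FC values, among those with a mean of at least 10 normalized CPM in CBL and no overlap of libraries. The 15 highest included the granule and Purkinje cell genes Gabra6, Cbln3, Pcp2 and Car8. They also held genes better known from other organs. Sycp1, a protein of the synaptonemal complex of meiosis, lay at 23.8 to 37.8 (median 29.6) in CBL and at 0 to 1.32 (median 0.0435) in BST, and was at 0 in all OB and BRN libraries. It was at least 86.7-fold higher than OB and at least 25.7-fold higher than BRN, and it was called higher than BST (edgeR adjusted p 5.36e-29, 18 of 18 higher). Chil5, a chitinase-like protein, lay at 11.2 to 20.2 (median 14.9) in CBL and was at the floor in OB and BST, at least 44.4-fold and at least 36.3-fold lower than CBL. Crtam, an adhesion molecule of T cells and natural killer cells, lay at 100.6 to 142.4 (median 115.5) in CBL and at no more than 9.35 elsewhere, with a smallest log2FC of 6.27 (edgeR adjusted p 4.10e-35). Cnpy1, which supports FGF signalling at the isthmus, lay at 203 to 552 (median 359.6) and no higher than 21.9 elsewhere, with a smallest log2FC of 7.33 (edgeR adjusted p 1.36e-28). Nrk, a protein kinase gene on chromosome X, lay at 66.5 to 88.1 (median 75) and at most at 4.72 elsewhere. Il20rb, a subunit of interleukin 20 receptors, lay at 41.7 to 81.2 (median 59.2) and at most at 2.25 elsewhere. The 5 remaining genes were Bcl2l15, a member of the BCL2 family, the noncoding or predicted genes Gm13944, Gm14033 and Gm5083, and Iltifb. Iltifb is a near copy of the interleukin 22 gene, so that reads of one cannot be told from the other with certainty, and it lay at 22.7 to 47.5 (median 32.7) in CBL. As the rule required this, every CBL library exceeded all 52 others in all 15 genes. The tallies and p values given for them describe that choice and are no separate evidence.

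More abundant transcripts outside the lists were also higher than in every other region, and the next ones were chosen after their values were seen. Adcy1, a calcium-stimulated adenylyl cyclase, lay at 1443 to 1828 (median 1643) in CBL and at most at 589.5 elsewhere, with a log2FC of 2.97 ± 0.07 (SE). Nrep, a small neuronal protein linked to regeneration, lay at 1284 to 1675 (median 1481) and at most at 274 elsewhere (log2FC 3.51 ± 0.05, SE). Chn2, a Rac GTPase-activating protein, lay at 652 to 946 (median 838) and at most at 104.8 elsewhere (log2FC 3.61 ± 0.03, SE). None of these genes had overlapping libraries. The endocannabinoid receptor Cnr1, found on parallel fibre and interneuron terminals, lay at 343 to 468 and at most at 160.8 elsewhere (log2FC 2.78 ± 0.06, SE). The kinase Camk4, which is abundant in granule cells, lay at 479 to 734 (median 607) and at most at 372 elsewhere (log2FC 2.56 ± 0.05, SE).

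The genes furthest below every other region were chosen by the same rule, with a mean of at least 10 in each of the other regions. Trh, the thyrotropin-releasing hormone precursor, had a median of 0 in CBL and reached at most 0.333, against 100.8 to 153.8 (median 126.4) in OB, 8.67 to 46.4 (median 17.5) in BRN and 13.8 to 31.9 (median 25.6) in BST. As the rule required this, every CBL library was below all 52 others for Trh and for the other genes of this set. Trh was called lower than every other region (edgeR adjusted p 4.62e-30). Such p values and the tallies of this set describe the choice and are no separate evidence. Lamp5, a membrane protein of inhibitory terminals, lay at 1.32 to 15.8 (median 2.48) in CBL and at no less than 52.7 elsewhere, with a smallest log2FC of -4.34 (edgeR adjusted p 8.47e-27, 18 of 18 lower). Crtac1, a secreted matrix protein also known as LOTUS, lay at 3.03 to 9.3 (median 6.71) in CBL and at no less than 51.8 elsewhere, with a smallest log2FC of -3.41 (edgeR adjusted p 1.25e-43, 18 of 18 lower). Receptors in this set included Htr2a, the serotonin 5-HT2A receptor, at 0.879 to 3.98 (median 2.62) in CBL and no less than 12.7 elsewhere. Tacr1, the substance P receptor, was at 0.0879 to 2.77 (median 1.42) in CBL and no less than 8.12 elsewhere. Scn3b, an auxiliary subunit of sodium channels, was at 3.6 to 15 (median 9.8) and no less than 49.3 elsewhere. The others were Gabra5, Cpne4, Necab2, Neto1, Rasgrf2, Elfn1, Hhipl1, D430019H16Rik and Lmo3, with smallest log2FCs from -3.32 for Gabra5 to -2.51 for Lmo3.

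Genes of neurons of the other regions were compared with the mean and with single regions. Of 16 genes of forebrain neurons 13 were lower and 2 higher than the mean, with a median log2FC of -1.87. Against BRN 14 were lower and 1 was higher, while against BST 5 were lower and 5 higher (median -0.25). Drd1, the dopamine D1 receptor, lay at 0 to 0.915 (median 0.333) in CBL and 25.8 to 64.8 (median 37.3) in BRN, with a log2FC of -3.80 ± 0.20 (SE; edgeR adjusted p 4.82e-26). Neurod2, a basic helix-loop-helix factor of excitatory neurons, went the other way, at 84.1 to 115.6 (median 100.9) in CBL and at most 76.1 elsewhere (log2FC 3.07 ± 0.07, SE; edgeR adjusted p 3.77e-42, 18 of 18 higher). Of 10 genes of olfactory bulb neurons 8 were lower and 1 was higher, with a median of -3.57, or -2.84 with floor genes at their bound. Sp8, a zinc finger factor of bulb interneurons, was at the floor in CBL and at 123.8 to 171.4 (median 146.2) in OB, at least 338-fold lower. Cdhr1, a protocadherin of mitral and tufted cells, lay at 0.483 to 2.71 (median 1.27) in CBL and 516 to 709 (median 604) in OB, without overlap.

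Regulators that set up the brain regions in the embryo were compared next. Of 26 regulators of the isthmus and rhombic lip 22 were tested, of which 16 were higher in CBL and 3 lower, with a median log2FC of 2.62 (2.48 with floor genes at their bound). Fgf8, Wnt1, Atoh1 and Ptf1a did not pass the filter on low counts. Of the 22 tested, 11 were higher and 6 lower against BST (median 1.11). Against OB 14 were higher and 1 lower (median 2.49), and against BRN 16 were higher and 4 lower (median 2.45). Pax3, a paired-box factor, lay at 6.21 to 11 (median 7.77) in CBL and at 1.22 to 3.96 (median 2.57) in BST, and was at the floor in OB, at least 22.9-fold lower. Barhl1, a homeobox factor of granule cells, lay at 10.2 to 15.7 (median 13.6) in CBL and at most at 7.84 elsewhere, at least 38.9-fold higher than OB. Both had all CBL libraries above all others. Pax2 was different, with 3.66 to 8.45 (median 6.04) in CBL and 8.12 to 18.2 (median 14.5) in BST, so that the ranges met only at their edges and CBL was the lower one (log2FC -1.18). The most abundant of these genes in CBL per kilobase of exon was Zic1 (143.2 CPM per kilobase), a zinc finger factor of granule cells, followed by Zic2 (66.4), both named after their values were seen.

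Of 19 forebrain regulators 7 were lower and 2 higher than the mean of the other regions in edgeR, with a median of -3.70 (-3.35 with floor genes at their bound). DESeq2 called 16 lower and 2 higher. Against BRN 18 were lower and 1 was higher, and against OB 15 were lower and 2 higher. Against BST 3 were lower and 4 higher, with a median of -0.30. Dlx1, a homeobox factor of forebrain inhibitory neurons, was at no more than 0.422 in CBL and at 323 to 396 (median 347) in OB, without overlap. Dlx1 was not called against the mean in edgeR, as the fit gave no usable error for it. In 1677 of the genes tested all libraries of a region and time had 0 counts, and 578 of these were called against the mean. Of 23 Hox genes, which pattern the hindbrain and spinal cord, 21 were tested, with 18 at the floor in CBL. Against the mean 0 were called higher and 0 lower, with a median of -2.58 (-1.10 with floor genes at their bound). That count is from edgeR, which also had 0 at an unadjusted p under 0.05, while DESeq2 called 19 lower and 0 higher. Against BST 21 were lower and 0 higher. Hoxa5 was at no more than 0.424 in CBL and at 19.2 to 49.99 (median 29.6) in BST, at least 72.2-fold lower. Hoxb5 was at no more than 0.439 in CBL and at 24 to 60.5 (median 44.1) in BST.

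Receptor subunits for GABA were found in both directions. Of 19 subunits 17 were tested, 4 were higher in CBL and 5 lower, with a median log2FC of -0.41 (-0.53 with floor genes at their bound). On the higher side were Gabra6 and Gabrd, the subunits of extrasynaptic receptors of granule cells, and Gabrb2, named after its value was seen. Gabrd lay at 186.8 to 248 (median 217) in CBL, 48.1 to 71.9 (median 53.8) in OB and 2.1 to 15.9 (median 3.32) in BST, and at a median of 126.5 in BRN. All CBL libraries were above all others, though the log2FC against BRN was 0.86 and did not reach the threshold. Gabra5, which forms extrasynaptic receptors in other neurons, lay at 1.05 to 8.12 (median 5.33) in CBL and at no less than 26.6 elsewhere, with a log2FC of -4.11 ± 0.11 (SE; edgeR adjusted p 1.76e-36, 18 of 18 lower). Gabrg3 lay at 1.85 to 4.98 (median 3.29) in CBL, with a log2FC of -2.50 ± 0.08 (SE; edgeR adjusted p 7.13e-37, 18 of 18 lower). Gabra2 and Gabra3 encode alpha subunits as well, and Gabra3 had a log2FC of -2.40 while Gabra2 was not called at -0.79, both named after their values were seen. Per kilobase of exon, Gabra6 in CBL was at 383 CPM per kilobase, with Gabra3 at 6.98 and Gabra5 at 1.68. In OB on that scale Gabra5 was at 63.3 and Gabra6 at 0.0276.

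Glutamate receptors were likewise divided. Of 26 subunits 25 were tested, 7 were higher and 6 lower, with a median log2FC of -0.29. The NMDA receptor subunits differed in direction. Grin2c lay at 236 to 394 (median 299) in CBL and at most at 107 elsewhere, with a log2FC of 2.30 ± 0.04 (SE; edgeR adjusted p 2.28e-52). Grin2b lay at 9.37 to 18.6 (median 14.4) in CBL and at no less than 41.1 elsewhere, with a log2FC of -3.02 ± 0.11 (SE; edgeR adjusted p 2.89e-29). The shared subunit Grin1 was not called, with a log2FC of -0.65. Grm4, a presynaptic metabotropic receptor of parallel fibres, lay at 302 to 471 (median 397) in CBL and at most at 145.3 elsewhere (log2FC 2.92 ± 0.08, SE; edgeR adjusted p 5.98e-36). Cerebellins are secreted proteins of synapses that bind neurexins. Of 15 genes of cerebellins, C1q-like proteins and their partners 5 were higher and 4 lower, with a median of -0.03 (-0.04 with floor genes at their bound). Cbln1 lay at 710.3 to 957 (median 801) in CBL and at most at 107 elsewhere, with a log2FC of 4.19 ± 0.05 (SE; edgeR adjusted p 1.05e-54, 18 of 18 higher). Its relatives Cbln2 and Cbln4, named after their values were seen, were lower, at -2.05 and -2.73. The neurexin Nrxn3 (-0.03) was not called. Nrxn2, named after its value was seen, had low levels throughout, at most 1.65 in CBL, and is counted among those higher.

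Genes of excitability, transmitter handling and disease followed. Of 59 potassium channel genes 13 were higher and 24 lower, with a median log2FC of -0.74 (-0.60 with floor genes at their bound). Kcng1, a modifying subunit, lay at 0.0879 to 1.3 (median 0.306) in CBL and at no less than 4.87 elsewhere, with a log2FC of -5.44 ± 0.17 (SE; edgeR adjusted p 2.55e-37, 18 of 18 lower). Kcnj4, an inward rectifier of forebrain neurons, had a log2FC of -7.66 against OB, -6.54 against BRN and 1.01 against BST. Of 42 genes of inherited ataxia 40 were tested, 14 were higher and 2 lower, with a median of 0.40. Those higher included Car8 and Itpr1, which the Purkinje cell list also holds, while Eef2 (-0.33) was not called. Of 14 transmitter transporters and related enzymes 3 were higher and 4 lower, with a median of -0.33. Slc1a6, the glutamate transporter EAAT4 of Purkinje cells, lay at no less than 126.3 (median 154.7) in CBL and at most at 23.9 elsewhere, with a log2FC of 3.73 ± 0.05 (SE; edgeR adjusted p 4.42e-55, 18 of 18 higher). Gad1, which makes GABA, was at medians of 597 in CBL and 2050.5 in OB, and was not called against the mean (log2FC -0.02).

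Genes of modulatory transmitters differed by region. Of 16 genes of monoamine and acetylcholine neurons 8 were lower and 1 was higher, with a median log2FC of -2.31 (-2.24 with floor genes at their bound). Against OB 7 were higher and 5 lower (median 0.93), against BRN 2 higher and 11 lower, and against BST 0 higher and 12 lower. Slc6a4, the serotonin transporter, lay at 0 to 0.542 (median 0.0779) in CBL and 14.3 to 54.9 (median 23) in BST, with a log2FC of -5.37 ± 0.30 (SE; edgeR adjusted p 4.63e-24). The BST libraries did not overlap with CBL for this gene. Maoa, an enzyme that degrades amines, was not called (log2FC 0.56). Of 24 neuropeptide genes 17 were lower and 0 higher, with a median of -2.62 (-1.89 with floor genes at their bound). Cartpt, the CART precursor, lay at 0 to 0.678 (median 0.329) in CBL and at no less than 5.07 elsewhere, with a log2FC of -5.52 ± 0.20 (SE; edgeR adjusted p 2.38e-33, 18 of 18 lower). Tac2, the neurokinin B precursor, lay at 0 to 0.519 (median 0.184) in CBL and at no less than 0.997 elsewhere, with a log2FC of -5.16 ± 0.27 (SE; edgeR adjusted p 9.94e-25, 18 of 18 lower). The hypothalamic peptide vasopressin (Avp) was at the floor in CBL and at 8.73 to 67.2 (median 27.6) in BRN, at least 74.8-fold lower.

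Activity-dependent and fasting-responsive genes were examined for a regional offset. Of 17 immediate early genes 8 were lower and 0 higher, with a median log2FC of -0.97 (-0.96 with floor genes at their bound). Against BST the list stood otherwise, with 7 higher and 2 lower. Egr3, an early growth response factor, lay at 0.176 to 2.32 (median 1.1) in CBL, 23.4 to 121.7 (median 86) in OB, 19.9 to 100.6 (median 68.7) in BRN and 1.33 to 4.51 (median 2.6) in BST, with a log2FC of -4.20 ± 0.22 (SE; edgeR adjusted p 1.81e-22). Arc, a regulator of AMPA receptor turnover, had a log2FC of -3.12 against OB, -2.77 against BRN and -0.54 against BST. Nr4a1 was not called against the mean (log2FC -0.97). Of 20 genes of the fasting and glucocorticoid response 19 were tested, 0 were higher and 2 lower, with a median of 0.14. Fkbp5, a co-chaperone of the glucocorticoid receptor, lay at 10.4 to 29.1 (median 19) in CBL, 41.9 to 74.3 (median 58.7) in OB, 35 to 64.6 (median 52.3) in BRN and 27.6 to 57.2 (median 39.99) in BST, with a log2FC of -1.47 ± 0.06 (SE; edgeR adjusted p 3.27e-30). Angptl4, a lipase inhibitor induced by fasting, had one of -1.11 ± 0.12 (SE; edgeR adjusted p 4.44e-12). Mt1 (0.32) and Tsc22d3 (0.22) were not called. For a change of the CBL difference over fasting time neither Fkbp5 (edgeR adjusted p 0.408) nor Angptl4 (edgeR adjusted p 0.933) was called. Of the 19 genes 2 had an unadjusted p under 0.05 in that test, and DESeq2 called 0.

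At single fasting times the number of genes called against the mean ran from 3228 at 12 h to 3910 at 18 h. Of the 15 granule cell genes 13 were higher at 2, 8, 12 and 22 h, and 14 at 0 and 18 h. Of the 22 Purkinje cell genes 19 were higher at every time. Whether the difference of CBL from the other regions changed over fasting time was tested directly as an interaction. This held for 33 genes (0.178%) at an adjusted p under 0.05, beside 1960 at an unadjusted p under 0.05. Of the 15 granule cell genes 0 and of the 22 Purkinje cell genes 0 were among them in edgeR, with 1 and 3 at an unadjusted p under 0.05, while DESeq2 called 1 of each. Grin1 (edgeR adjusted p 0.0283, and 0.0751 without 0 h) and Slc1a2 (edgeR adjusted p 0.0394, and 0.114 without 0 h) were among the 33, and were named here after their values were seen. The smallest p belonged to endothelial genes. Abcb1a, the efflux pump P-glycoprotein of the blood-brain barrier, had a log2FC of -0.92 ± 0.17 (SE) at 0 h and 0.56 ± 0.17 at 22 h (edgeR adjusted p 0.00158 for the change). Its CBL mean was 9.33 at 0 h and 19.2 at 22 h, against 19 and 15.8 in the other regions. Flt1, a VEGF receptor, went from -1.01 to 0.43 (edgeR adjusted p 0.00384), and Adgrf5, an adhesion receptor of endothelium, from -0.93 to 0.47 (edgeR adjusted p 0.00384). In all 3 CBL was lowest relative to the others at 0 h.

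**Figure D3:**
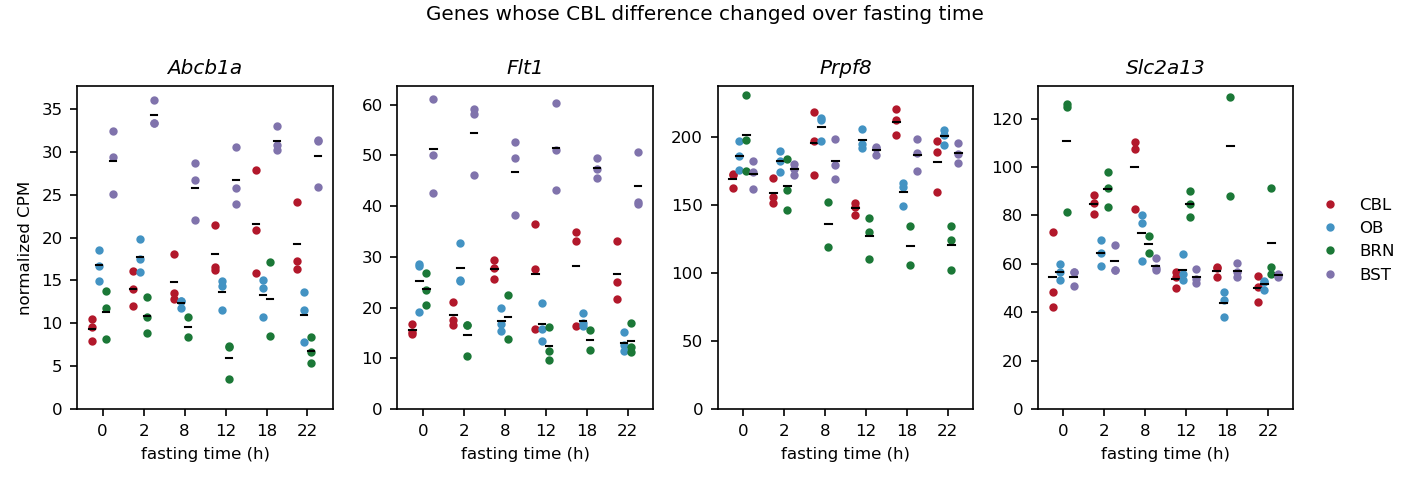
Normalized CPM of Abcb1a, Flt1, Prpf8 and Slc2a13 at each fasting time (h), 1 point per library, coloured by region, with black lines at the mean of each region and time. In CBL the mean of Flt1 was 15.5 at 0 h and 26.6 at 22 h, while in the other regions together it was 33.4 and 23.5.

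The list of vascular genes also had its lowest median at 0 h. Its 10 genes had a median log2FC of -0.87 at 0 h, -0.48 at 2 h, 0.24 at 12 h (the highest) and 0.05 at 22 h, with 3 called lower at 0 h alone and 1 at 2 h alone, and with 8 at an unadjusted p under 0.05 for the change. Their summed CBL level was 151.9 to 159.9 (median 152.7) at 0 h and 196.1 to 283 (median 208) at 22 h. From 0 h to 22 h the median sum went from 243.0 to 169.6 in OB, from 384.3 to 333.3 in BST and from 210.1 to 205.7 in BRN. Rgs5, a pericyte gene of this list, was not called (adjusted p 0.0863 for the change in edgeR). The CBL libraries at 0 h, with the lowest median of this sum in the region, were also its deepest, and the part of depth or of vessel content was not tested. Without the 0 h libraries 7 genes were called, and Abcb1a (adjusted p 0.202), Flt1 (0.271) and Adgrf5 (0.407) were not among them in edgeR, though 31 of the 33 kept an unadjusted p under 0.05. Abcb1a had a log2FC of -0.43 at 2 h. Other genes of the interaction serve transcription and splicing. Prpf8, the core protein of the spliceosome, had its lowest log2FC of -0.19 at 12 h and its highest of 0.46 at 18 h (edgeR adjusted p 0.00487, and 0.0274 without 0 h). Polr2a, the largest subunit of RNA polymerase II, went from -0.50 at 12 h to 0.39 at 18 h (edgeR adjusted p 0.0173), and Hcfc1, a chromatin cofactor, from -0.19 to 0.59 (edgeR adjusted p 0.0173). Gtf2b, a basal transcription factor, ran the other way, from 0.49 at 12 h to -0.29 at 18 h (edgeR adjusted p 0.0149). Slc2a13, the proton myo-inositol transporter, was highest relative to the others at 8 h, at 0.59, and lowest at 0 h, at -0.36 (edgeR adjusted p 0.00487). Phlpp1, a phosphatase of AKT, and Dagla, which makes the endocannabinoid 2-AG, were highest at 18 h, at 0.45 and 1.28 (edgeR adjusted p 0.0173 and 0.0226, and 0.0752 for both without 0 h). Of the 33 genes 20 had their highest difference at 18 h, where BRN had 2 libraries. The count of genes called for this change depended strongly on single CBL libraries. It was 6 without 18 h replicate 1 or without 12 h replicate 2, and 76 without 18 h replicate 3. With DESeq2 the count was 325, with no filter 759, with total counts 10 and with the left-out BRN libraries 3. Runs without a replicate of every group left BRN with 1 library at 8 h, 18 h or both. Such a group holds no spread of its own. The counts of these runs for this test are listed only with the alternatives below, and no conclusion is drawn from them.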

How the data were processed

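The values are mRNA-seq read counts per gene. The authors aligned reads of stranded libraries to GRCm38.p5 with TopHat2 2.1.1 and counted them with HTSeq 0.9.1 on Gencode M16 genes, and the table of counts they deposited was used as given. The sources used do not give the strand setting of the counting. Gene positions and exon lengths were taken from Gencode M21, matched by symbol. Symbols that had turned into dates, Sept4 among them, were not analysed.

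Genes entered the test genome-wide when the CPM of 10 counts in a median library (1.09) was reached in at least 3 libraries, which left 18496 genes. Counts were scaled with TMM factors and fitted with the robust quasi-likelihood model of edgeR 4.0.16 (limma 3.58.1, R 4.3.3), with a mean for each region at each fasting time. Differences were taken within fasting time and averaged over the 6 times. Tests were two-sided, except that for a difference beyond every other region. The p values were adjusted by the Benjamini-Hochberg method over all genes tested. A difference beyond every other region took the largest of its 3 one-sided p values, with each direction adjusted separately. The change of the CBL difference over fasting time was an F test of the interaction, called at an adjusted p under 0.05 alone. The code was tested on simulated data. Alternatives were DESeq2 1.42.0, other scalings, filters and thresholds, single fasting times, leaving out libraries, adding back the BRN libraries left out, the libraries of OB and CBL at 0, 2 and 8 h with lane 3 in their names, and the animal as a replicate block. The block takes libraries with equal fasting time and replicate number as 1 animal, and the titles do not name the animal. Residuals of CBL and another region were correlated over 11000 genes, which are not independent replicates. For pairs taken as the same animal the median was 0.038 for OB, 0.0169 for BRN and 0.0603 for BST. For pairs taken as different animals it was 0.00295, -0.0254 and -0.0493, in the same order.

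A library at 3 counts or fewer was taken as at the detection floor, which in the shallowest library was 0.438 CPM in CBL, 0.347 in OB, 1.17 in BRN and 0.425 in BST. Where all libraries of a region were at the floor, the fold is a lower bound computed against it. Where some libraries of a region were above the floor, the fold is the fitted value, which rests on few counts, and no bound is given. Floors and bounds cover counting error only. Levels of different genes were compared only per kilobase of exon.

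Genes were named by a rule written before the count files were opened here: Pcp2 and Cbln3; the 15 genes furthest above and the 15 furthest below every other region without overlap of libraries and with a mean of at least 10 normalized CPM; per list up to 4 called genes with the largest log2FC and up to 2 not called with the highest level; and the 10 genes with the smallest p for the interaction. There were 29 lists, 15 of cell types and 14 of gene groups, and some genes are in several. The regions compared and the lists were chosen with earlier results of these data known, so that their counts are descriptions and not independent evidence. Further tools were Python 3.11.15, pandas 2.3.3 and matplotlib 3.10.9. Results of some genes of the lists are not reported here.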

Additional observations from a re-analysis of the deposited data

Results flagged for a closer look

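In a test of the interaction 33 genes were called for a difference of CBL from the other regions that varied between fasting times. The count was 3 with the left-out BRN libraries, 6 without CBL 18 h replicate 1 and 7 without the 0 h libraries. It was 325 with DESeq2 and 759 with no filter. The edgeR quasi-likelihood adjusted p was 0.00158 for Abcb1a, 0.00384 for Flt1 and Adgrf5, 0.00487 for Prpf8 and Slc2a13, 0.0149 for Gtf2b, 0.0173 for Polr2a, Phlpp1 and Hcfc1, and 0.0226 for Dagla. Without the 0 h libraries it was 0.202 for Abcb1a, 0.271 for Flt1, 0.407 for Adgrf5 and 0.0752 for Phlpp1 and Dagla. The fold changes at single times are given with the results.

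Counts of both cerebellar markers appeared in libraries of other organs that no comparison here used. Of 92 libraries outside the comparisons, the 2 left-out BRN libraries with 0 counts of both among them, 18 had Pcp2 over 3 counts, 26 had Cbln3 over 3 counts, and 6 had both. The white fat library psWAT 12 h replicate 3 held 2085 counts of Pcp2 and 6785 of Cbln3. In CPM of total counts it held 327.8 of Pcp2, 1067 of Cbln3 and 648.8 of Gabra6. The normalized CPM in CBL was 274 to 388 for Pcp2, 1397 to 2020 for Cbln3 and 825 to 1070 for Gabra6. The other libraries with both markers over 3 counts were far lower. psWAT 22 h replicate 3 held 21 and 27 counts, psWAT 0 h replicate 2 held 5 and 12, stomach (STM) 0 h replicate 1 held 6 and 4, psWAT 18 h replicate 2 held 4 and 5, and iBAT 8 h replicate 3 held 7 and 7 (Pcp2 first). The source of these counts was not tested.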

How the results depend on the processing

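Counts of genes called against the mean, OB, BRN and BST stayed within 1.5 times their reported values under every alternative run except that without a fold threshold, which gave 13735 against the mean, 13396 against OB, 14642 against BRN and 13445 against BST. Beyond every other region 5051 genes were called without the fold threshold, and 899 with it at 12 h alone. Without single libraries or replicates the counts ran from 3285 to 3546 against the mean, 4294 to 4531 against OB, 5200 to 6275 against BRN, 3909 to 4162 against BST and 1194 to 1418 beyond every region. With a replicate block for the animal they were 3517 against the mean, 4520 against OB, 5810 against BRN, 4127 against BST and 1395 beyond every region. Against the mean more genes were lower than higher as reported (1590 higher, 1916 lower), but not with total counts (1765, 1762), without replicate 1 (1714, 1706), without replicate 3 (2014, 1377), with no filter (2581, 1995), at 18 h alone (2011, 1899) or with no fold threshold (7017, 6718). Among the lists, the count called lower ran from 0 to 19 for Hox genes (0 as reported, 19 with DESeq2), from 5 to 16 for forebrain regulators (7 as reported, 16 with DESeq2), from 5 to 9 for olfactory bulb neurons and from 1 to 4 for isthmus and rhombic lip regulators.

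The number of genes whose CBL difference changed over fasting time was the least stable, at 33 as reported. It was 325 with DESeq2, 759 with no filter, 10 with total counts, 20 with upper quartile factors, 3 with the left-out BRN libraries added, 50 without BRN 2 h replicate 3 and BRN 18 h replicate 2, and 37 with the replicate block (27 shared). Without the 0 h libraries it was 7, and without the pair of BST libraries highest in cerebellar markers 25, both alternatives added after seeing the data. Without single libraries or replicates it ran from 0 to 1379: 0 without replicate 1, 3 without replicate 2 and 1379 without replicate 3 of every group. Without single CBL libraries it moved by over 1.5 times in these runs: it was 19 and 20 (0 h replicates 1 and 3), 18 and 21 (2 h replicates 1 and 2), 6 and 11 (12 h replicates 2 and 3), 6, 13 and 76 (18 h replicates 1, 2 and 3) and 21 (22 h replicate 2). In the 8 other such runs it was 23 to 38. The cause was not tested. Runs without replicate 1, 2 or 3 of every group left BRN with 1 library at 8 h, 18 h or both. So did the run without BRN 2 h replicate 3 and BRN 18 h replicate 2, at 18 h. Such a group holds no spread of its own. The counts of these runs, and the range that rests on them, are listed as a record only. No conclusion is drawn from them.

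Of 175 results for named genes 26 lost their call under some alternative (83 of 6586 values) and 17 gained one (49 values). All 10 genes named for the interaction lost theirs under some alternative. Of the 175, 14 changed sign under some alternative, and none of these was called as reported. At single fasting times the log2FC against the mean was -0.0912 for Cdh22 at 8 h, 0.0945 and 0.2003 for Lgi2 at 18 and 22 h, 0.4758 for Gjd2 at 18 h, -0.0148 for Gja1 at 2 h, -0.5168 and -0.2622 for Rgs5 at 0 and 2 h, and -0.4101 and -0.1921 for Slco1a4 at 0 and 2 h. It was 0.0054 for Hbb-bs, 0.0717 for Hba-a1 and -0.0755 for Neurod6 at 2 h, -1.0008 for Pax5 at 0 h, 0.0051, 0.000908 and 0.148 for Nrxn3 at 0, 8 and 18 h, -0.1847 for Kcna2 at 12 h, 0.1126, 0.1984 and 0.0053 for Gad1 at 8, 18 and 22 h, and 0.0519, 0.0012 and 0.1009 for Maob at 12, 18 and 22 h. With total counts it was 0.0601 for Lgi2, 0.0352 for Nrxn3, 0.0520 for Gad1 and 0.0484 for Maob, and with upper quartile factors -0.0180 for Rgs5. With the left-out BRN libraries it was 0.0035 for Lgi2 and 0.0049 for Gad1, and without BRN 2 h replicate 3 and BRN 18 h replicate 2 it was 0.0055 for Maob. Without single libraries or replicates it ran from -0.0330 to 0.0164 for Lgi2, -0.1449 to 0.2575 for Gjd2, -0.0919 to 0.0173 for Nrxn3, -0.0548 to 0.0126 for Gad1 and -0.0663 to 0.0221 for Maob. The cause was not tested. Depth limits values near the floor, which was highest in BRN.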
